A study of Mus musculus with 12 samples.

Results

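AMPA and NMDA receptor subunits were followed in the hippocampus and cortex of aged 3xTgAD mice that received amitriptyline (AMI) or vehicle. The 10 genes were chosen by name (Gria1, Gria2, Gria3, Gria4, Grin1, Grin2a, Grin2b, Grin2c, Grin2d and Grin3a), and 9 of them were represented by 15 of the 25697 probes of the Illumina Mouse Ref-8 v2 array. Grin3a had no probe under its symbol. The AMPA subunits had 9 probes and the NMDA subunits had 6. All mice, controls included, were male 3xTgAD animals, which carry human mutant amyloid precursor protein and tau transgenes under a neuronal Thy1 promoter and a mutant presenilin-1 knock-in, so no wild-type brain was measured. Mice entered at 14 months of age, received AMI-hydrochloride at 100 µg per g of body weight in drinking water or plain water (vehicle) for 4 months, and were sampled at 18 months. The study's methods add that both groups received the thymidine analogue BrdU midway. RNA of 3 AMI and 3 vehicle samples was hybridised for each tissue, 12 arrays in all, and the labels do not tie samples to individual mice.

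AMPA and NMDA receptors are glutamate-gated cation channels of excitatory synapses, each assembled from several subunits. AMPA receptors (GluA subunits, encoded by Gria1 to Gria4) carry the fast synaptic current, and the Gria2 subunit keeps most of them impermeable to calcium. NMDA receptors need the obligatory GluN1 subunit (Grin1) together with GluN2 subunits (Grin2a to Grin2d) or GluN3 subunits, admit calcium when glutamate arrives at a depolarised membrane, and trigger the movement of AMPA receptors into synapses that underlies long-term potentiation. The hippocampus, with its densely packed pyramidal and granule cells, is the classical site of this plasticity.

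Several subunits were read by more than 1 probe, and the probes of a gene did not always give the same answer, so the probe sequences are shown for the genes in which this mattered. All are 50 bases long and are printed as the array annotation gives them, 5′ to 3′, in the sense of the transcript. The genome positions are those of the same annotation, whose build is not named. The first Gria1 probe (chr11:57131239-57131288) lies in the coding sequence of the last membrane-spanning segment, and the other 2 Gria1 probes (chr11:57140963-57141012 and chr11:57140966-57141015) lie in that of the cytoplasmic tail. By their sequences the tail probes are offset by 2 bases and share 48, shown in capitals, although the annotation places them 3 bases apart. They are therefore not independent of each other.
Gria1 ILMN_1248802: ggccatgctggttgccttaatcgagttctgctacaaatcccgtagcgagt
Gria1 ILMN_2648012: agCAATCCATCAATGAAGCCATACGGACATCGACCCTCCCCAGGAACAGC
Gria1 ILMN_2648006: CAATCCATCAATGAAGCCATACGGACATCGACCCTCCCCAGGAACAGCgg

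The 3 Gria3 probes cover different coding exons in the order of the transcript, at chrX:38963345-38963394, chrX:39022739-39022788 and chrX:39025567-39025616. The first lies ahead of the pore, the second in the alternatively spliced flip/flop segment, and the third near the end of the cytoplasmic tail. The second may therefore read only part of the Gria3 transcripts, and its values need not stand for all of them.
Gria3 ILMN_2638066: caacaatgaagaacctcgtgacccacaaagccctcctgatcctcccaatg
Gria3 ILMN_1238789: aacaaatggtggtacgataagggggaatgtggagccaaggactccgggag
Gria3 ILMN_1223636: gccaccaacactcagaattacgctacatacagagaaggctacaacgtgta

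Of the 2 Grin1 probes, one (chr2:25168995-25169044, minus strand) lies in the extracellular amino-terminal domain. The other spans an exon junction, with 32 bases in the exon at chr2:25151312-25151343 and 18 bases, in capitals, at chr2:25150051-25150068, which open the C1 cassette of the carboxyl terminus, an exon that some Grin1 transcripts leave out. It can therefore read only transcripts that contain this junction.
Grin1 ILMN_1253164: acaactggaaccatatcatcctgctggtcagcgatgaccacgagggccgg
Grin1 ILMN_1216667: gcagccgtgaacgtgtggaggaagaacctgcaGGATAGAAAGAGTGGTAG

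A normalized value is the log2 signal of a probe after z normalization within its array, so that 0 is the array mean. A probe counted as detected at a detection p of 0.05 or less, which 12588 to 13280 of the 25697 probes reached on each array. The hippocampal AMI and vehicle arrays numbered 1 lay apart from the other 4 hippocampal arrays on the first principal component (0.60 and 0.53, against -0.37 to -0.15). The files of the hippocampus and the cortex came from separate scanner reports, so that tissue and report cannot be told apart in any hippocampus to cortex difference. As a check of the tissue labels, 3 of 4 hippocampus markers tested were higher in the hippocampus, among them the dentate granule cell genes C1ql2 (9.34-fold) and Prox1 (2.25-fold), and 1, Wfs1, was 1.46-fold lower. Of 5 cortex markers, 4 were higher in the cortex, led by Tbr1, a transcription factor of cortical projection neurons (3.65-fold), and 1, Fezf2, was 1.75-fold higher in the hippocampus. The striatal genes Ppp1r1b and Rgs9 were also 5.61-fold and 4.67-fold higher in the cortical samples, and all 4 striatum markers tested were higher there, with a summed level of 21.2 to 38.1 on cortical and 6.49 to 9.64 on hippocampal arrays (the sum of the normalized signals on a linear scale). Whether tissue next to the cortex was included in the dissection was not tested.

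The linear signal of the Gria2 probe ILMN_2680737 was 4164 to 10826 and that of the Grin2d probe ILMN_2710382 was 42.9 to 69.8, while the median signal of undetected probes was 52.2 to 73.2. Probes of Gria1, Gria2, Gria3, Grin1 and Grin2c were detected on all 12 arrays. Gria4 was detected on 4 of 6 cortical and 1 of 6 hippocampal arrays, Grin2a on 2 hippocampal arrays, Grin2b on 1, and Grin2d on none. Of the 15 probes, 11 (of 5 genes) therefore passed the filter of 3 detected arrays in the hippocampus and 12 (of 6 genes) in the cortex, where Gria4 was added. Counts of members below are counts of probes, so that a gene with several probes enters more than once. Each probe binds with its own strength, so these signals give no order of transcript level between genes.

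**Figure D1:**
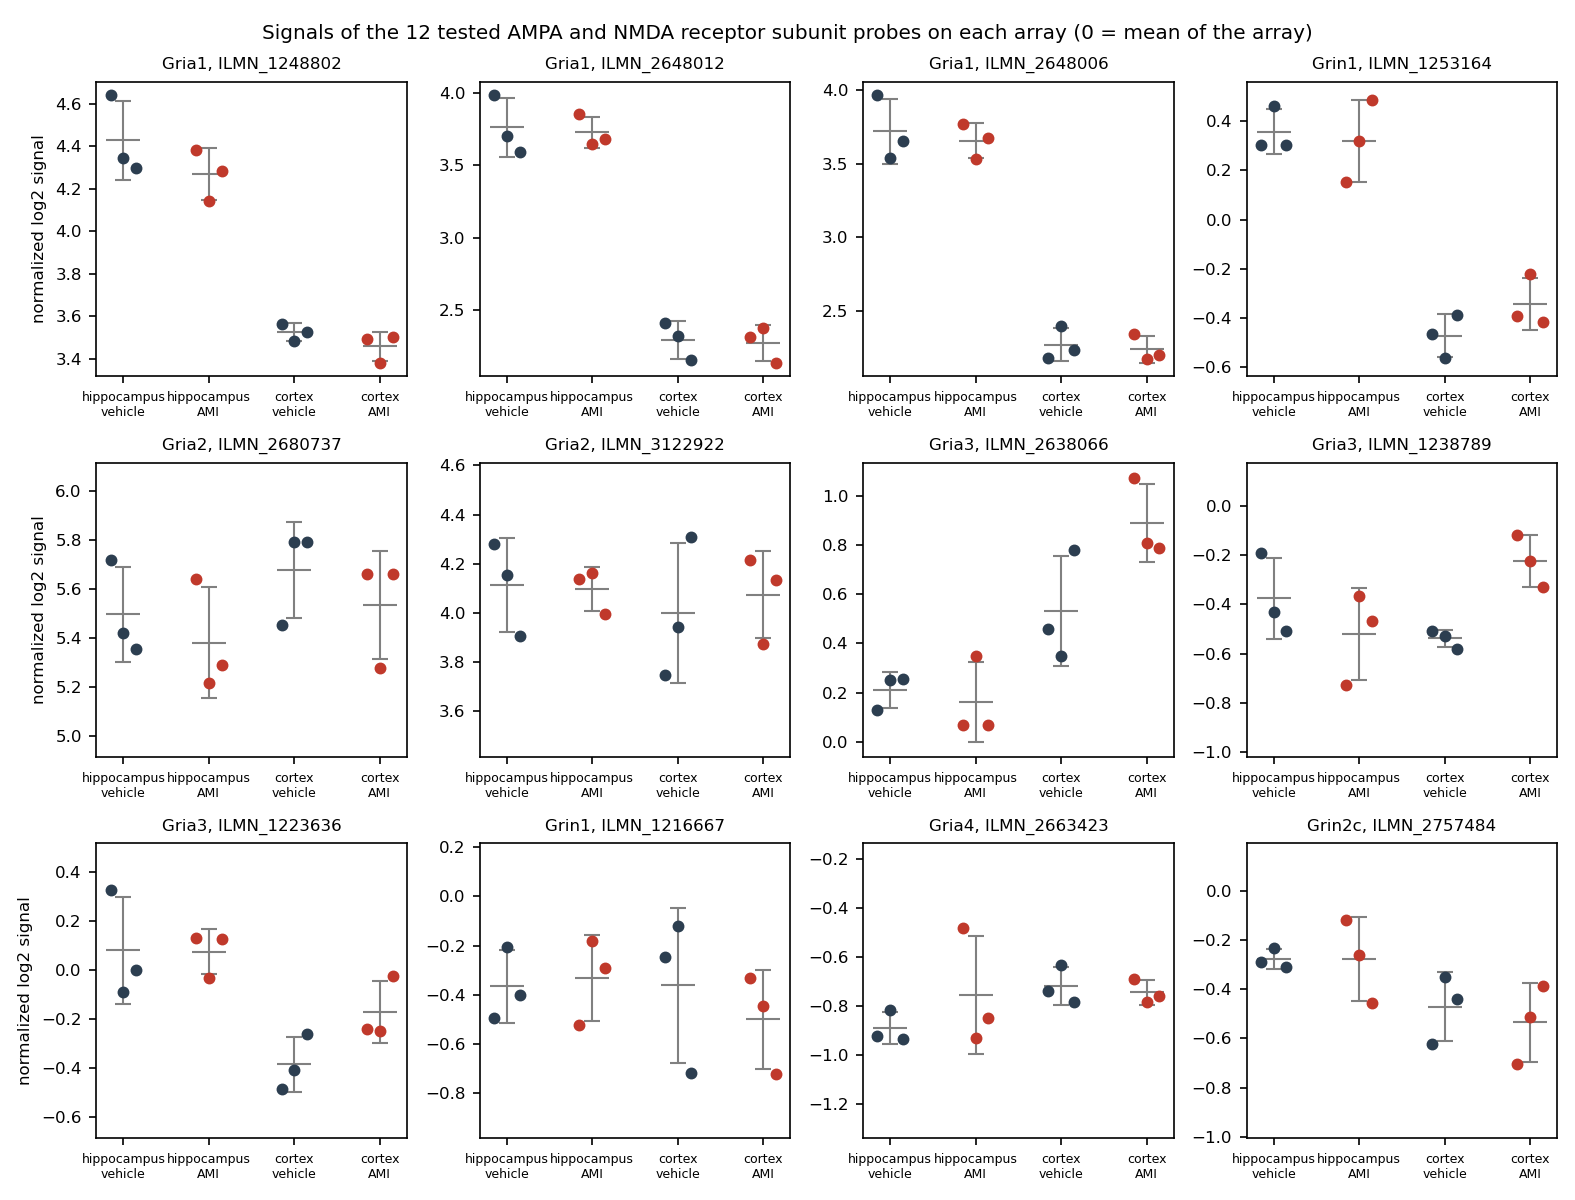
Normalized log2 signal (vertical axis) of each of the 12 tested probes on the 3 arrays of each tissue and treatment. Points are arrays, in the order of replicates 1 to 3, and grey bars are the mean and SD. The Gria1 probes and Grin1 ILMN_1253164 sit higher on all 6 hippocampal than on all 6 cortical arrays, and AMI and vehicle arrays overlap in the hippocampus.

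The first comparison asked where the subunits were expressed more, hippocampus or cortex, averaged over both treatments. Of the 12 probes tested, 6 were higher and 1 lower in the hippocampus at an adjusted p under 0.05 with limma, in a contrast that called 43.1% of all probes tested (24.4% higher and 18.7% lower). The tissues did not overlap for 4 probes that were higher in the hippocampus (those of Gria1 and Grin1 ILMN_1253164) and 1 that was lower, beside 22.3% of all probes. The median difference of the 12 probes was 0.15, beside 0.026 for all probes. Gria1 enters these values through each of its probes. With 1 probe per gene, that of the highest mean log2 signal, 3 of 6 genes were higher and 1 was lower, with a median of 0.068. With 5891 probes called over the array, the size of each difference and the readings of the other probes of the gene are given beside each call.

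Gria1, the subunit whose phosphorylation and insertion accompany long-term potentiation, had the largest differences among the members. The tail probe ILMN_2648012 had normalized values of 3.98, 3.70 and 3.59 on the vehicle and 3.85, 3.65 and 3.68 on the AMI arrays of the hippocampus. On the cortical arrays the values were 2.41, 2.32 and 2.15 with vehicle and 2.31, 2.38 and 2.14 with AMI. All 6 hippocampal arrays lay above all 6 cortical arrays, by a difference of 1.46 (SE 0.083) on the log2 scale or 2.75-fold (95% confidence interval 2.42 to 3.11; adjusted p = 8.52e-08, limma). The overlapping probe ILMN_2648006 differed by 1.44 (SE 0.083), or 2.70-fold. The membrane segment probe ILMN_1248802 separated the tissues in the same direction, with 4.14 to 4.64 in the hippocampus and 3.38 to 3.57 in the cortex, but by a smaller difference of 0.86 (SE 0.073), or 1.81-fold (1.62 to 2.02; adjusted p = 2.51e-06, limma). Of all probes tested, 99.7% had a lower hippocampus minus cortex difference than ILMN_2648012, and 98.5% than ILMN_1248802.

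Grin1, the subunit that every NMDA receptor contains, was also higher in the hippocampus by its amino-terminal probe. ILMN_1253164 had 0.30, 0.46 and 0.31 on the vehicle and 0.15, 0.32 and 0.49 on the AMI arrays of the hippocampus. The cortical values were -0.47, -0.56 and -0.39 with vehicle and -0.39, -0.22 and -0.42 with AMI. The tissues did not overlap, and the difference of 0.75 (SE 0.073, 95% confidence interval 0.59 to 0.91) on the log2 scale was a 1.68-fold higher signal (adjusted p = 7.01e-06, limma). The C1 junction probe ILMN_1216667 gave another result. Its values ran from -0.52 to -0.18 in the hippocampus and from -0.72 to -0.12 in the cortex, and the difference was 0.082 (SE 0.11, 95% confidence interval -0.16 to 0.32; adjusted p = 0.591, limma), so that the hippocampal values lay within the cortical range.

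Gria3, an AMPA subunit that pairs mainly with GluA2, pointed in different directions along its transcript. The probe ahead of the pore, ILMN_2638066, had hippocampal values of 0.13, 0.25 and 0.25 with vehicle and 0.07, 0.35 and 0.07 with AMI. Its cortical values were 0.46, 0.35 and 0.78 with vehicle and 1.07, 0.81 and 0.79 with AMI. Every cortical array lay above every hippocampal array, though the lowest cortical and the highest hippocampal value met at 0.35, and the difference was -0.52 (SE 0.090), a 1.44-fold lower hippocampal signal (adjusted p = 0.000535, limma). The tail probe ILMN_1223636 went the other way, by 0.35 (SE 0.083) or 1.28-fold higher in the hippocampus (adjusted p = 0.00423, limma), with ranges of -0.09 to 0.33 and -0.48 to -0.03 that overlapped slightly. The flip/flop probe ILMN_1238789 lay between them, at -0.067 (SE 0.080, 95% confidence interval -0.24 to 0.11; adjusted p = 0.533, limma).

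Gria2 was read by 2 probes whose ranges overlapped between tissues. ILMN_2680737 had 5.22 to 5.72 in the hippocampus and 5.28 to 5.79 in the cortex, a difference of -0.17 (SE 0.11; adjusted p = 0.236, limma), and ILMN_3122922 differed by 0.068 (SE 0.10; adjusted p = 0.634, limma). The direction of Gria2 depends on the scaling, since with median centring, which moves the median of all probes from 0.026 to 0.19, the 2 probes were higher in the hippocampus by 0.53 and 0.61 and both passed the threshold. ILMN_2680737 was instead called lower in the hippocampus with array weights (-0.24) and without both hippocampal arrays numbered 1 (-0.29). Median centring also changed the split of all calls from 3332 higher and 2559 lower to 4644 higher and 838 lower. The Gria1, Grin1 ILMN_1253164 and Gria3 calls above kept their direction and their call under quantile normalization, median centring and normexp-based neqc.

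Grin2c, the GluN2 subunit best known from cerebellum and glia, was the only GluN2 probe detected throughout. Its values ran from -0.45 to -0.12 in the hippocampus and from -0.71 to -0.35 in the cortex, and the difference of 0.23 (SE 0.080) just passed the threshold (adjusted p = 0.0361, limma). It passed in 11 of the 23 settings and in 4 of the 12 fits that left out an array, including none of those without a hippocampal vehicle array. Gria4, a subunit of fast-spiking interneurons, differed by -0.091 (SE 0.078; adjusted p = 0.377, limma) at signals of 66.2 to 97.6, near those of undetected probes. Gria4 was not detected on any hippocampal vehicle array. Its vehicle means were -0.72 in the cortex, with 2 of 3 arrays detected, and -0.89 in the hippocampus. The vehicle difference of -0.17 was called in 0 of 20 settings. Grin2a, the major GluN2 subunit of the adult forebrain, had vehicle means of -0.72 in the hippocampus, again with 2 arrays detected, and -1.05 in the cortex. Detection in only 1 tissue itself fixes which tissue is brighter, so these means carry no test of direction. They also leave out the spread between arrays. Grin2b was detected only on 1 hippocampal AMI array and Grin2d on none. For these dim probes the array says little about the transcript, since background was not subtracted from the signals.

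**Figure D2:**
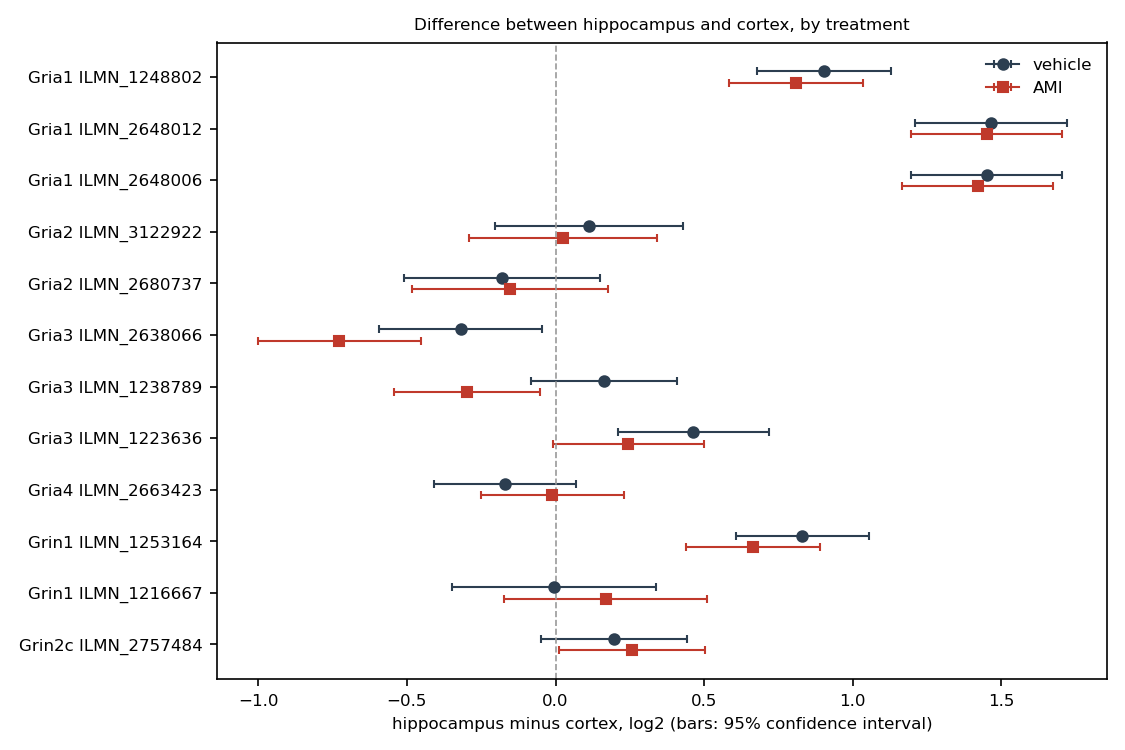
Hippocampus minus cortex difference in log2 (horizontal axis) of the 12 tested probes, for vehicle arrays (circles) and AMI arrays (squares), 3 arrays per tissue and treatment. Bars are 95% confidence intervals. The Gria1 probes stand at 0.81 to 1.46 with either treatment, and the Gria3 probes lie lower with AMI than with vehicle.

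The tissue differences were then taken within each treatment. With vehicle, 5 of the 12 probes were called, all higher in the hippocampus (25.1% of all probes were called, 15.0% higher). With AMI, 4 were called higher and 1 lower (27.0% of all probes, 15.1% higher and 11.9% lower). Gria1 ILMN_2648012 differed by 1.46 (SE 0.12) with vehicle and 1.45 (SE 0.12) with AMI, and Grin1 ILMN_1253164 by 0.83 (SE 0.10) and 0.66 (SE 0.10). Gria3 ILMN_2638066 differed by -0.32 (SE 0.13; adjusted p = 0.0835, limma) with vehicle and by -0.73 (SE 0.13; adjusted p = 0.00139, limma) with AMI. Gria3 ILMN_1223636 was called with vehicle (0.46, SE 0.12) and not with AMI (0.24, SE 0.12). The flip/flop probe ILMN_1238789 had a difference of 0.16 (SE 0.11; adjusted p = 0.322, limma) with vehicle and -0.30 (SE 0.11; adjusted p = 0.0682, limma) with AMI, and was called in neither. Whether these pairs of values differ is the interaction given below.

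Probes of 1 gene were set against each other on the same array, where the centring of the array drops out but the division by its SD does not. The 3 pairs described here were chosen after their values were seen and carry no test. The Gria1 difference ILMN_2648012 minus ILMN_1248802 ran from -0.71 to -0.49 on the hippocampal and from -1.37 to -1.01 on the cortical arrays. The Gria3 difference ILMN_1223636 minus ILMN_2638066 ran from -0.38 to 0.20 and from -1.31 to -0.76, and the Grin1 difference ILMN_1253164 minus ILMN_1216667 ran from 0.50 to 0.80 and from -0.44 to 0.33. In each pair the tissues did not overlap, and the tissue differences of the 2 probes were 0.60, 0.88 and 0.66 apart. With the raw log2 signals, in which no array SD enters, they were 0.49, 0.80 and 0.70 apart and the tissues again did not overlap in any of the 3 pairs. Of the 4504 pairs of tested probes with a shared gene symbol, 6.82% were at least 0.6 apart and did not overlap between tissues. The cut of 0.6 lies just under the smallest of the 3 values, so the share is no test of these pairs. With raw log2 signals the Gria1 pair, at 0.49, fell below it. Other pairs of member probes are not given here. What lies behind these differences between probes was not tested.

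**Figure D3:**
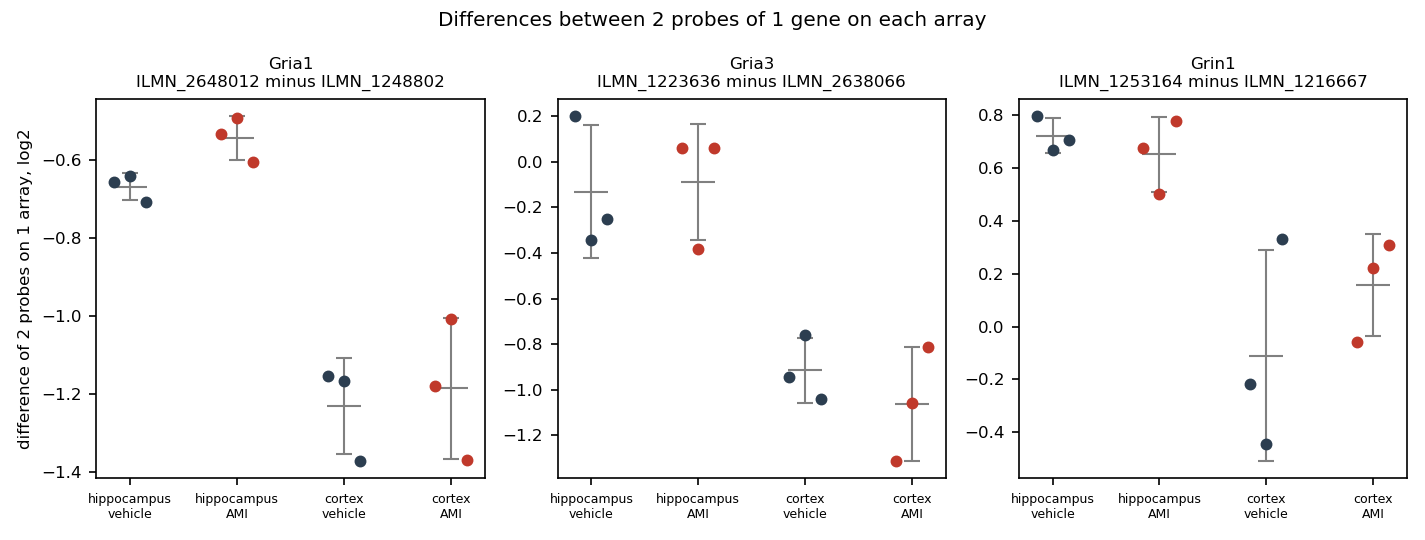
Difference in log2 (vertical axis) between 2 probes of Gria1, Gria3 and Grin1 on the same array, for 3 arrays of each tissue and treatment. Points are arrays and grey bars the mean and SD. In each panel all 6 hippocampal arrays lie above all 6 cortical arrays.

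The second comparison asked whether AMI altered the subunits. In the hippocampus no probe did so at an adjusted p under 0.05 with limma, of 11 members or of all 13163 probes tested (0.0% called), and no member reached an unadjusted p under 0.05, which 2.35% of all probes did. Differences between AMI and vehicle ran from -0.17 to 0.037 on the log2 scale, 10 of 11 were below 0, and their median was -0.039 beside 0.014 for all probes. The 95% confidence intervals ran from -0.47 at the lowest to 0.33 at the highest. Gria1 ILMN_1248802 had the lowest value, with 4.64, 4.34 and 4.30 with vehicle against 4.38, 4.14 and 4.28 with AMI on the common scale of the 12 arrays, and a difference of -0.17 (SE 0.13; adjusted p = 0.9996, limma) when the hippocampus was fitted alone. AMI and vehicle arrays overlapped for every member, whereas 7.89% of all probes did not overlap. Without both arrays numbered 1, again no member was called, and 6 of the 10 values below 0 turned above 0, among them Gria3 ILMN_1238789 from -0.15 to 0.058.

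In the cortex no member was called either, of 12 members or of all 12944 probes (0.0%), and 2 members reached an unadjusted p under 0.05, beside 6.28% of all probes. Both were Gria3 probes. On the scale of the cortical arrays, ILMN_1238789 had values of -0.11, -0.21 and -0.31 with AMI and -0.48, -0.50 and -0.55 with vehicle. The groups did not overlap, and the difference was 0.30 (SE 0.090, 95% confidence interval 0.094 to 0.50; unadjusted p = 0.00954, adjusted p = 0.756, limma). The linear signals behind these values were low, at 105 to 147 with AMI and 92.8 to 102 with vehicle. On the cortical arrays the median signal of undetected probes was 65.1 to 73.2. ILMN_2638066 had 1.01, 0.76 and 0.74 with AMI and 0.43, 0.33 and 0.74 with vehicle, so that the groups met at 0.74, and the difference was 0.34 (SE 0.13; unadjusted p = 0.0292, adjusted p = 0.756, limma). The tail probe ILMN_1223636 had -0.23, -0.23 and -0.02 with AMI and -0.46, -0.39 and -0.25 with vehicle, a difference of 0.20 (SE 0.10; adjusted p = 0.789, limma).

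All 3 Gria3 probes thus had their AMI arrays above their vehicle arrays, a pattern that 8.1% of all probes in the cortex showed. The probes share the same 6 samples, so they are repeated readings of one gene and not separate evidence, and ILMN_1238789 may read only part of its transcripts. Leaving out each cortical array in turn kept the 3 differences above 0, at 0.13 to 0.46, and none passed the threshold. The striatum markers differed between the same groups in the opposite direction, lower with AMI. Their summed level was 21.2 to 30.8 with AMI and 33.7 to 38.1 with vehicle, and Drd2 and Rgs9, a dopamine receptor and a signalling regulator of striatal neurons, had differences of -0.51 and -0.59 (adjusted p = 0.756 for each, limma). Their part in the Gria3 values was not tested. The other 9 cortical probes had differences of -0.14 to 0.12, with AMI and vehicle arrays overlapping in each, and the median of the 12 was -0.022 beside 0.022 for all probes.

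**Figure D4:**
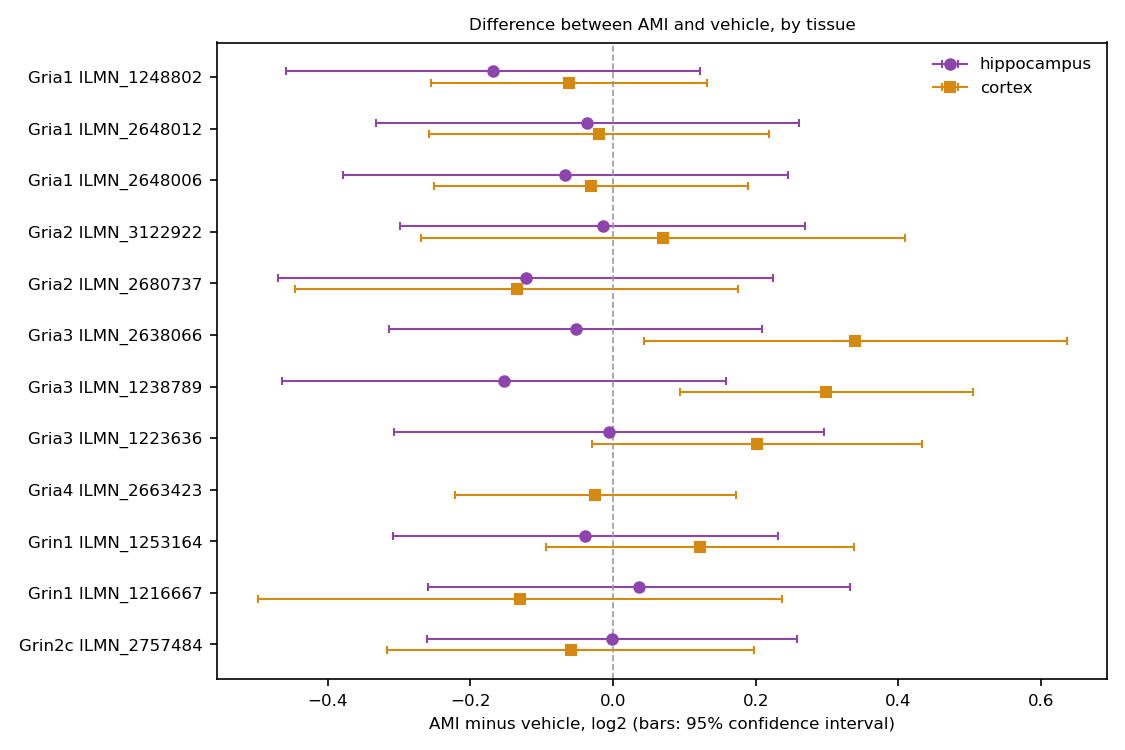
AMI minus vehicle difference in log2 (horizontal axis) of the tested probes in the hippocampus (circles, 11 probes) and the cortex (squares, 12 probes), 3 arrays per treatment and tissue. Bars are 95% confidence intervals. Hippocampal intervals all include 0, and the Gria3 probes ILMN_2638066 and ILMN_1238789 lie to the right of 0 in the cortex, although neither passed the adjusted threshold.

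The difference between the AMI effects of the tissues was tested as the interaction of tissue and treatment. None of 11 members and none of 12430 probes was called (0.0%), and 2 members reached an unadjusted p under 0.05 beside 3.03% of all probes. These were Gria3 ILMN_1238789, with an effect lower in the hippocampus by -0.46 (SE 0.16; unadjusted p = 0.0139), and ILMN_2638066, with -0.41 (SE 0.18; unadjusted p = 0.0417), both at an adjusted p of 0.9999 (limma). The third Gria3 probe had -0.22 (SE 0.17). For Gria1 ILMN_2648012 the interaction was -0.014, with a 95% confidence interval of -0.38 to 0.35.

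With 3 arrays a side, the smallest two-sided p of an exact permutation test is 0.1. The confidence intervals of the AMI differences extended up to 0.37 on either side within a tissue. Over the member probes they ran from -0.47 to 0.33 in the hippocampus and from -0.50 to 0.64 in the cortex. Effects within these limits are not excluded. The intervals are not adjusted for the number of probes tested, so their width is not the smallest effect that would have been called. Gria3 ILMN_1238789 in the cortex, at 0.30 with an interval of 0.094 to 0.50, was not called. In whole tissue, fewer cells of a type and less RNA per cell cannot be told apart. Neuronal and glial markers also differed between the tissues. Of 3 pan-neuronal markers tested 2 were lower in the hippocampus and none higher, with Nefm at -0.81. Of 5 interneuron markers 3 were lower and none higher, and of 7 oligodendrocyte markers 4 were lower and 1 higher. Of 6 microglia markers 5 were higher and none lower. The astrocyte markers were divided, with 2 of 6 higher (Gfap by 1.77 and S100b by 0.51) and 2 lower. Their part in the subunit differences was not tested.

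Genes that partner the receptors were read from 5 lists, with 1 probe per gene. Of 47 genes 32 were tested, and between the tissues 8 were higher and 9 lower in the hippocampus, beside 24.4% and 18.7% of all probes. Of 12 AMPA receptor auxiliary and trafficking genes 4 were higher, 4 lower and 4 not called. Among the transmembrane regulatory proteins that escort AMPA receptors to the synapse, Cacng8 was higher by 0.86 (SE 0.12) and Cacng3 lower by -1.45 (SE 0.10), and Cacng4 and Cacng5 were lower by -0.55 and -0.41. The anchoring proteins Grip1 and Pick1 were higher by 0.56 and 0.30. Of the neuronal pentraxins, which cluster AMPA receptors from outside the cell, Nptx1 was higher by 0.80 and Nptx2 lower by -0.68 in the hippocampus.

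Of 7 NMDA receptor scaffold and kinase genes 2 were higher and 5 not called. The higher genes were the tyrosine kinase Src at 1.02 (SE 0.15) and Dlg4, the PSD-95 scaffold, at 0.34 (SE 0.12). Camk2a and Camk2b, the kinase of potentiated synapses, had 0.078 and 0.092 with intervals that include 0. Of 4 kainate and delta receptor genes Grik4, a kainate subunit of hippocampal mossy fibre synapses, was higher by 0.95 (SE 0.067), Grik1 was lower by -0.48 and 2 were not called. Of 2 metabotropic receptors Grm8 was lower by -0.69 and Grm7 was not called. Of 7 genes of glutamate supply and uptake, glutamine synthetase (Glul) was higher by 0.53, the vesicular transporters Slc17a6 and Slc17a7 were lower by -1.16 and -0.62, and the glial transporter Slc1a2 was lower by -0.29. The direction was therefore mixed within 3 of the 5 lists, as it was among the AMPA subunits.

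**Figure D5:**
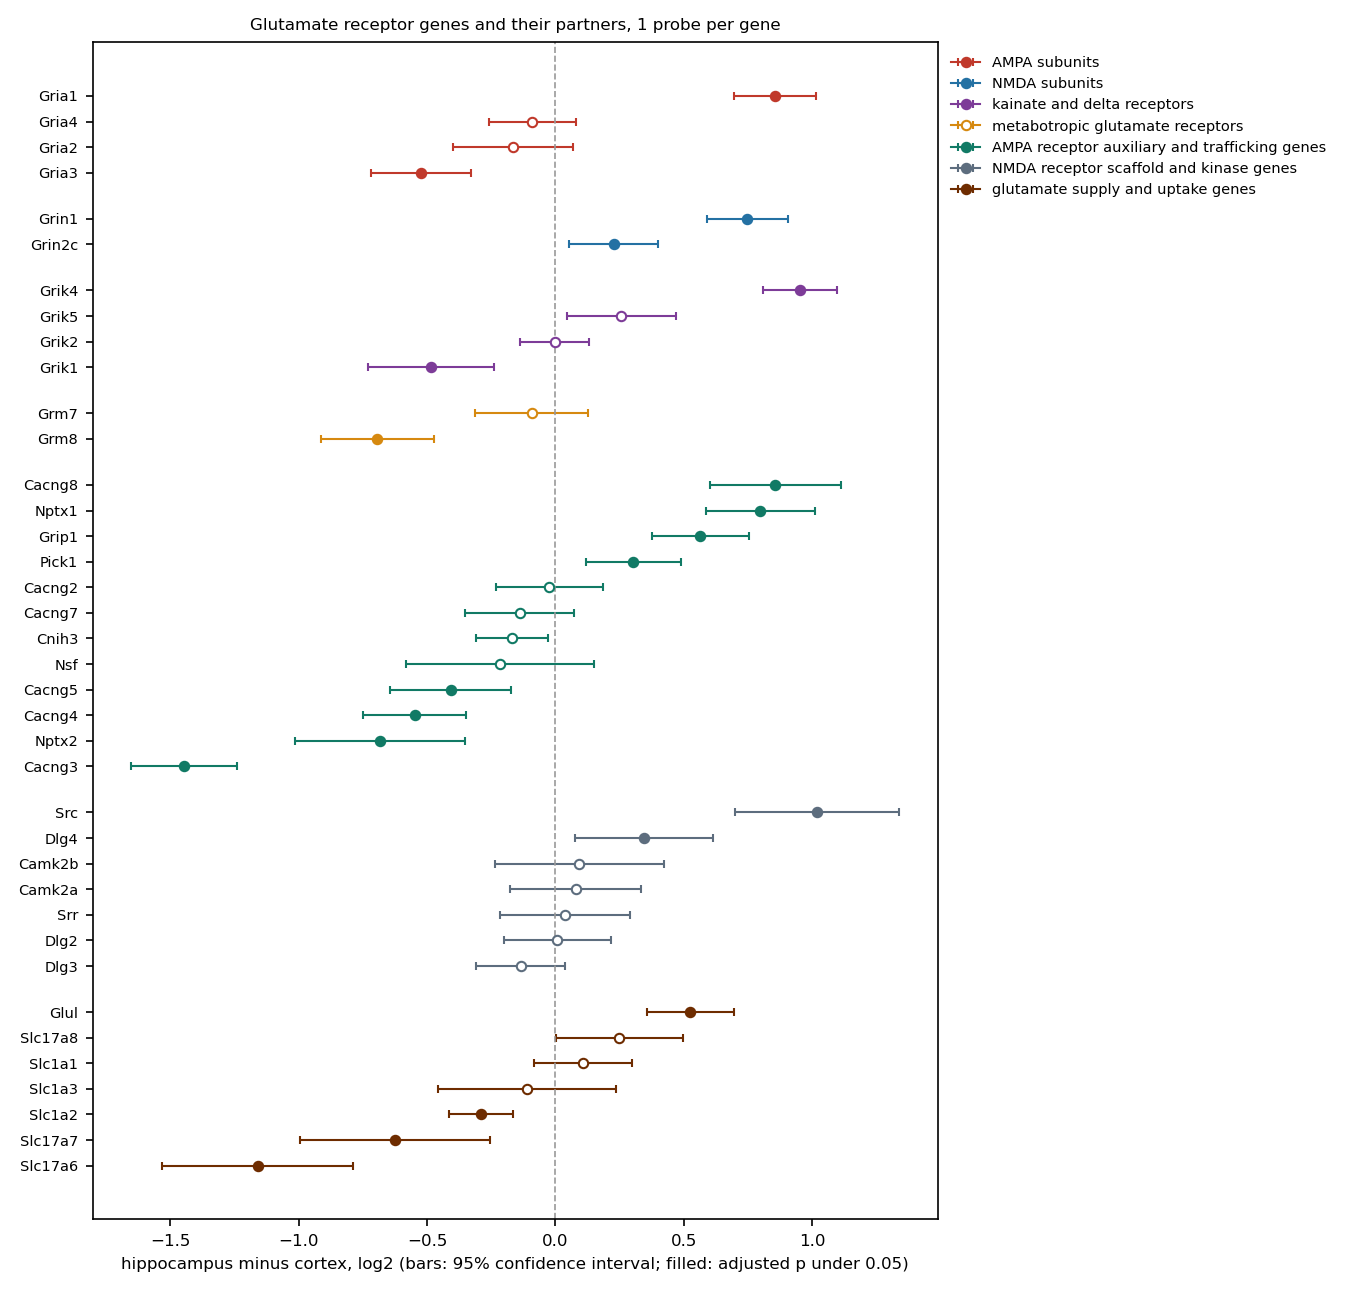
Hippocampus minus cortex difference in log2 (horizontal axis) of the subunits and the 32 tested partner genes, 1 probe per gene and 6 arrays per tissue. Bars are 95% confidence intervals and filled points passed an adjusted p under 0.05. Src and Grik4 lie farthest to the right, at 1.02 and 0.95, and Cacng3 farthest to the left, at -1.45.

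None of the 32 partner genes in the hippocampus and none of 31 in the cortex was called between AMI and vehicle. At an unadjusted p under 0.05 there was 1 in the hippocampus, the neuronal glutamate transporter Slc1a1 (0.30), beside 2.35% of all probes. In the cortex there were 6, beside 6.28% of all probes. Of these, the kainate subunit Grik5 had -0.49, Cacng4 -0.41, Grip1 -0.27, Camk2a -0.26, Cacng7 0.35 and the vesicular transporter Slc17a8 0.31, all at an adjusted p of 0.756 to 0.781 (limma).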

How the data were processed

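Total RNA of 12 samples was labelled from an oligo-dT primer and hybridised to Illumina Mouse Ref-8 v2 arrays. The authors deposited linear bead intensities without normalization or background correction, each with its detection p-value. Per the labels the scanner software was BeadStudio 3.4 or GenomeStudio 1.1.1, and the file headers give BSGX 3.4.0 for the hippocampus and GSGX 1.1.1 for the cortex. Log2 intensities were centred on the array mean, divided by the array SD and rescaled by the average of the array SDs (the z normalization of the study's methods), by tissue for AMI against vehicle and over all 12 arrays for tissue contrasts. Probes whose detection p-value did not exceed 0.05 on 3 or more arrays of the tissue entered the AMI against vehicle fits. Tissue contrasts took probes that met this in either tissue, and the interaction took those that met it in both. Gria4 therefore entered the tissue contrasts through the cortex only. All main fits used limma 3.58.1 (R 4.3.3), with Benjamini-Hochberg adjustment over all tested probes and a threshold of 0.05. The script was tested on simulated data. Python 3.11.15 with numpy 2.4.6, pandas 2.3.3 and matplotlib 3.10.9 made tables and figures. The number of arrays limits the precision, and array intensities carry no read depth.

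Every probe of a member is named, and the main probe of a gene in lists is the one with the highest mean log2 signal. Other genes named belong to the lists, as genes that passed a tissue contrast, had a large difference or mark the tissue, or reached an unadjusted p under 0.05 and were chosen after their values were seen. Members and lists were chosen with earlier results of these data known. A few list genes are not reported here and are left out of the list counts. Sequences are those of the array annotation. Where nothing shows that samples came from separate animals, p-values measure only the spread between samples. Deviations from group means of AMI and vehicle arrays with the same number correlated by 0.61, 0.30 and 0.29 in the hippocampus and by -0.06, 0.33 and 0.33 in the cortex. Arrays with unlike numbers correlated by -0.47 to 0.28 in the hippocampus and by -0.42 to 0.27 in the cortex. The main fits did not pair arrays by number, and the replicate block was run only as an alternative. Across tissues, arrays with the same number correlated by -0.35 to 0.09. Alternatives were quantile normalization, median centring, neqc (offset 16), no or a stricter detection filter (p of 0.01 or less on all arrays), trend with robust variances, array weights, replicate blocks (statmod 1.5.0 for the random block), detection in both tissues, all arrays in one fit, the methods' t-test and cutoffs (a z ratio of 1.5, a false discovery rate of 0.3), and leaving out each array. The t-test is the general statistic of the study's methods, which for the arrays name an ANOVA after the cutoffs. Here the cutoffs were applied to limma p-values, so neither alternative repeats the study's array analysis. Leaving out both hippocampal arrays numbered 1, and raw log2 signals for probe pairs, were chosen after seeing the data.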

Additional observations from a re-analysis of the deposited data

How the results depend on the processing

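The number of members called was 0 in the hippocampus and 0 in the interaction under every alternative run. In the cortex it was 0 except with the methods' t-test at an unadjusted p of 0.05. That test gave 1 of 12 members, Gria3 ILMN_1238789, beside 827 of 12944 probes. With the replicate number as a block no member was called in either tissue, and no hippocampal member reached an unadjusted p under 0.05. Over all probes, those at an unadjusted p under 0.05 rose from 309 to 1063 in the hippocampus and from 813 to 1125 in the cortex. The block across tissues left the tissue difference at 7 (random) or 6 (fixed) members against 7 without it, and changed no other count of members. The tissue difference held 5 to 9 called members over all alternatives, beside 4450 to 7805 called probes, and 6 to 7 members when an array was left out. Without a detection filter, and so with the dim Grin2a, Grin2b and Grin2d probes, it held 8 of 15 members, beside 6081 of 25697 probes. Within vehicle it held 5 members, with a range of 4 to 6, beside 2408 to 5104 called probes. Within AMI it held 5, with a range of 4 to 9 and the 9 reached with array weights, which also raised the count over all probes from 3694 to 6787; the cause was not tested. Counts of probes at an unadjusted p under 0.05 ranged from 72 to 1305 in the hippocampus, from 375 to 2954 in the cortex and from 63 to 2491 in the interaction. The Gria1 probes, Grin1 ILMN_1253164, Gria3 ILMN_1223636 and Gria3 ILMN_2638066 were called in the averaged tissue difference in every setting that tested them. Their sizes moved by over 1.5 times for Gria1 ILMN_1248802 with median centring (1.37) and for Gria3 ILMN_2638066 with neqc (-0.80), and Grin2c reached 0.36 with neqc without passing the threshold. Grin2c lost its call in 12 of 23 settings, and ran from 0.18 to 0.27 when an array was left out.

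Values that were not called changed sign in some settings. With median centring the AMI differences in the hippocampus became 0.056 and 0.13 for Gria2 (ILMN_2680737 and ILMN_3122922), 0.022 for Gria3 ILMN_1223636, and 0.099 and 0.068 for the Gria1 tail probes (ILMN_2648012 and ILMN_2648006). In the cortex they became 0.031 for Gria2 ILMN_2680737 and 0.056, 0.038 and 0.044 for Gria1 (ILMN_2648012, ILMN_2648006 and ILMN_1248802), and the tissue difference of Gria2 ILMN_2680737 became 0.53. With array weights the hippocampal differences became 0.11 for Gria3 ILMN_1223636, 0.0062 for Grin1 ILMN_1253164 and 0.027 for Gria1 ILMN_2648006, and the cortical ones 0.017 for Gria2 ILMN_2680737 and 0.039 for Gria1 ILMN_2648006. Gria2 ILMN_3122922 in the hippocampus became 0.033 with neqc and 0.032 with quantile normalization. Without both hippocampal arrays numbered 1 the hippocampal values became 0.10 for Gria3 ILMN_1223636, 0.056 for Gria2 ILMN_3122922, 0.058 for Gria3 ILMN_1238789, 0.018 for Gria1 ILMN_2648012, 0.022 for Grin1 ILMN_1253164 and 0.0050 for Gria1 ILMN_2648006.

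When 1 array was left out in turn, the hippocampal AMI difference ran from -0.094 to 0.13 for Gria3 ILMN_1223636, from -0.12 to 0.075 for Gria2 ILMN_3122922, from -0.12 to 0.084 for Gria1 ILMN_2648012, from -0.043 to 0.14 for Grin1 ILMN_1216667, from -0.13 to 0.051 for Grin1 ILMN_1253164, from -0.16 to 0.065 for Gria1 ILMN_2648006 and from -0.088 to 0.091 for Grin2c ILMN_2757484. The cortical AMI difference ran from -0.056 to 0.015 for Gria4 ILMN_2663423, from -0.048 to 0.22 for Gria2 ILMN_3122922, from -0.087 to 0.047 for Gria1 ILMN_2648012, from -0.080 to 0.029 for Gria1 ILMN_2648006 and from -0.13 to 0.021 for Grin2c ILMN_2757484. The tissue difference ran from -0.0075 to 0.14 for Grin1 ILMN_1216667. The signals of Gria4, Grin2a, Grin2b and Grin2d, near those of undetected probes, limit what the arrays show of these subunits. Signals of the Grin1 probes and of Gria3 ILMN_1238789 were also low on some arrays, which limits their readings.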
